A study of Mus musculus with 12 samples.

Results

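Expression of 10 melanocyte and pigment genes was examined in mouse back skin: Tyr, Tyrp1, Dct, Pmel, Mlana, Slc45a2, Oca2, Mitf, Sox10 and Kit. The genes were set by name, and all 10 were found among the 56923 genes of the count table. All 10 also passed the filter on low counts and were tested with the 18529 genes that did. Bulk RNA-seq had been made from 12 female mice aged 8 to 10 weeks on a C57BL/6 background, with 3 mice in each of 4 groups. WT control mice and control mice labelled Lcn2-/- received vehicle cream on shaved back skin, and WT IMQ mice and IMQ mice labelled Lcn2-/- received 5% imiquimod (IMQ) cream there, daily for 6 days in every group. IMQ is a Toll-like receptor 7 agonist used to induce psoriasis-like inflammation. Lcn2 encodes lipocalin 2, a siderophore-binding protein of neutrophils and inflamed epithelium, and the study asked how its loss changed the IMQ response. The mice labelled Lcn2-/- came from a purchased knockout line, and WT littermates served as controls. In the sample labels the genotype is an LCN2 knockdown, and control mice have the treatment none.

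Counts on Lcn2 went only in part with the genotype labels. Lcn2 was at 6.28, 8.64 and 4.57 CPM (read counts scaled to the normalised size of the library) in the WT control mice, 61.2, 183 and 76.1 in the WT IMQ mice, 10.5, 9.22 and 15.9 in the control mice labelled Lcn2-/- and 34.3, 29.9 and 49.8 in the IMQ mice labelled Lcn2-/-. The gene was therefore read in every library labelled as lacking it, and the deleted part could not be checked from counts per gene. With IMQ all mice labelled Lcn2-/- lay below all WT mice, whereas the control mice so labelled lay above all WT control mice. Every direction given below for mice labelled Lcn2-/- rests on that label. The labels give the tissue as skin, while their extraction text speaks of retinas, a tissue whose pigment epithelium also makes melanin. The retinal genes Rpe65, Crx and Nrl were at 0 in all 12 libraries, and the 10 retinal and pigment epithelium markers summed to between 1.21 and 6.02 CPM. Markers of epidermal keratinocytes summed to between 5207 and 40985 CPM. Libraries held 16448226 to 28592110 counts. WT control mouse 2 was the lowest of all control mice in Tyr, Tyrp1, Dct, Pmel, Mlana, Slc45a2, Oca2 and Sox10, but not in Mitf or Kit. Counts of these genes called with IMQ in WT mice are therefore given with and without it. Comparisons of the control mice, and of the IMQ responses, between genotypes are given with it only.

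Melanin is made by melanocytes, cells of neural crest origin, inside an organelle called the melanosome. In the furred back skin of the mouse the pigment-making melanocytes sit in the bulb of the hair follicle and make melanin only while the follicle grows, a phase called anagen. Tyrosinase (Tyr) carries out the rate-limiting oxidation of tyrosine, dopachrome tautomerase (Dct) and Tyrp1 act downstream of it, Pmel builds the fibrils on which melanin is laid down, and Slc45a2 and Oca2 are melanosome membrane proteins that support tyrosinase activity. Mitf, the lineage's main transcription factor, binds motifs with the core CATGTG or CACGTG in the promoters of pigment genes, Sox10 lies upstream of Mitf, and Kit is the receptor for stem cell factor. Mitf, Sox10 and Kit are also expressed outside the lineage: Mitf in macrophages and mast cells, Sox10 in Schwann cells, Kit in mast cells.

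The promoters of the 3 enzyme genes carry a shared motif and are shown for that reason, each as the 160 bases before the RefSeq start on GRCm38.p6, 5′ to 3′ along the gene, with the 10 letters GTCATGTGCT in capitals. The stretches lie at chr7:87493513-87493672, minus strand (Tyr), at chr4:80834053-80834212, plus strand (Tyrp1) and at chr14:118052247-118052406, minus strand (Dct).
Tyr: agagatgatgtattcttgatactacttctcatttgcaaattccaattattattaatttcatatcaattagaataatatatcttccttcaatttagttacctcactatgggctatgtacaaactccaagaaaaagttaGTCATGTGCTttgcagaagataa
Tyrp1: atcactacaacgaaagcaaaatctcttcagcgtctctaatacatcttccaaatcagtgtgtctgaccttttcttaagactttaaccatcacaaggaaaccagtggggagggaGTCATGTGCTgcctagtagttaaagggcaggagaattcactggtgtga
Dct: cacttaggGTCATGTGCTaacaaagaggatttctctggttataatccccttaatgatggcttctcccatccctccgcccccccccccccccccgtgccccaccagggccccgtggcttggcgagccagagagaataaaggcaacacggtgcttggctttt
Counted back from the start, the 10 letters span -23 to -14 in Tyr, -48 to -39 in Tyrp1 and -152 to -143 in Dct, and they contain the Mitf core CATGTG. In the GENCODE M21 annotation used below, the Tyrp1 gene begins before that RefSeq start, at chr4:80834123. The 10 letters of Tyrp1 therefore lie inside the gene as GENCODE places it. The 10 letters are the longest run that the 3 windows share, which was looked for after the promoters had been chosen. The run was found on either strand in 61 of 32851 promoter windows of 300 bases (0.186%), the core CATGTG in 14.2% and CACGTG in 7.15%. Dct has a further CACATG, the reverse complement of CATGTG, at -232 to -227, and Oca2 has one at -186 to -181. Of the 10 genes, 6 had RefSeq promoter entries. Mitf had 3, and the last of them, at chr6:97991623-97991782, plus strand, lies before the start used in melanocytes. It is shown because it holds TGACGTCA, the cyclic AMP response element, here in capitals at -153 to -146.
Mitf: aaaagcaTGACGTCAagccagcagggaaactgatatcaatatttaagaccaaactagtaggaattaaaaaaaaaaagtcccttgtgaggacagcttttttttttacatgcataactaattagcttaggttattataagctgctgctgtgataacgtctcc
TGACGTCA was found in 1.79% of the windows. Each match describes letters in a window and was not tested for binding. Counts were per gene, so transcripts from the 3 Mitf starts were not separated.

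All 10 genes had reads in every library, the lowest value being 1 count of Oca2 in WT control mouse 2. Per kilobase of exon and averaged over the 3 WT control mice, Tyrp1 (28.9 CPM per kb), Dct (25.6) and Pmel (21.3) had the highest levels. Mlana was at 9.79 and Mitf at 6.57 CPM per kb. Sox10 (3.56), Tyr (3.49) and Kit (3.43) lay close together, above Slc45a2 (1.58) and Oca2 (0.599). Control mice differed widely in the 7 enzyme and melanosome genes: the highest of the 6 control mice was 4.99 times the lowest for Dct and 13.9 times for Mlana. For Mitf, Sox10 and Kit that ratio was 1.29, 1.88 and 1.44.

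**Figure D1:**
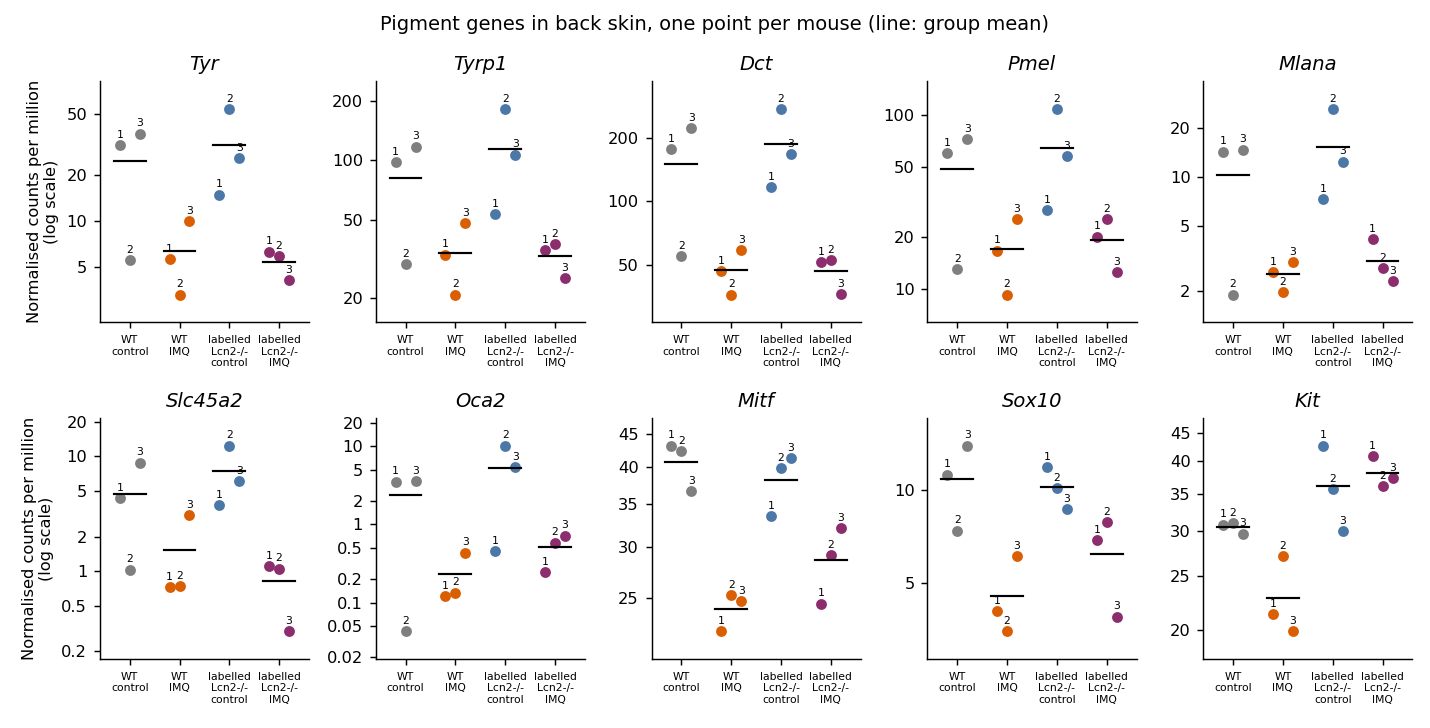
Normalised CPM of each of the 10 genes (vertical axis, log scale) in the 4 groups, with 1 point per mouse numbered within its group and a line at the group mean. WT control mouse 2 lies among or below the WT IMQ mice for the 7 enzyme and melanosome genes, while for Mitf it lies with the other control mice.

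The first question was how IMQ changed these genes within each genotype. In WT mice 5 of the 10 genes fell with IMQ (Tyr, Dct, Mlana, Mitf and Sox10) and 0 rose, against 14.3% of all tested genes lower and 14.2% higher. Among mice labelled Lcn2-/-, 6 of 10 fell (Tyr, Tyrp1, Dct, Mlana, Slc45a2 and Mitf) and 0 rose, against 11.2% of all tested genes lower and 14.1% higher. Here and below a gene was called higher or lower where edgeR's quasi-likelihood test gave a Benjamini-Hochberg adjusted p under 0.05 over all 18529 genes. At an unadjusted p under 0.05, 9 of 10 were lower in either genotype, against 21.1% of all tested genes in WT mice and 18.8% among mice labelled Lcn2-/-: in WT mice all but Slc45a2, and among mice labelled Lcn2-/- all but Kit. The median log2 fold change of the 10 genes was -1.55 in WT mice and -1.90 among mice labelled Lcn2-/-, where the medians over all tested genes were -0.025 and -0.046. Since these were bulk samples, fewer melanocytes and less RNA per melanocyte cannot be told apart.

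Of the melanin-synthesis enzymes, Tyr and Dct fell with IMQ in both genotypes and Tyrp1 among mice labelled Lcn2-/-. How many alternative fits kept each call of the 10 genes is given below. Identifiers are those of the count table, and positions are those of the whole gene in GENCODE M21 on GRCm38, over whose exons the length was taken. Tyr (ENSMUSG00000004651, chr7:87424771-87493512, minus strand) encodes tyrosinase. It stood at 31.5, 5.55 and 37.5 CPM in the WT control mice and 5.63, 3.29 and 10.03 in the WT IMQ mice, and at 14.9, 54.4 and 25.9 in the control mice labelled Lcn2-/- and 6.29, 5.90 and 4.08 in the IMQ mice so labelled. The WT groups overlapped through control mouse 2 alone, whereas the groups labelled Lcn2-/- did not overlap. Tyr fell 3.89-fold in WT mice, which is -1.96 (SE 0.66, adjusted p = 0.0449) on the log2 scale, and 5.83-fold among mice labelled Lcn2-/-, at -2.54 (SE 0.68, adjusted p = 0.0186).

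Tyrp1 (ENSMUSG00000005994, chr4:80834123-80851719, plus strand) encodes tyrosinase-related protein 1, which acts late in eumelanin synthesis. Its levels were 98.0, 29.7 and 117 CPM in the WT control mice against 33.2, 20.8 and 48.0 with IMQ, and 53.2, 183 and 107 against 35.0, 37.4 and 25.2 among mice labelled Lcn2-/-. As with Tyr, only WT control mouse 2 lay within the IMQ range. The log2 fold change was -1.26 (SE 0.52, adjusted p = 0.0898) in WT mice, which did not pass the threshold, and -1.81 (SE 0.52, adjusted p = 0.0268) among mice labelled Lcn2-/-, which did. Dct (ENSMUSG00000022129, chr14:118012790-118052244, minus strand) encodes dopachrome tautomerase and is also expressed in melanoblasts, before pigment is made. Dct stood at 176, 54.9 and 222 CPM in the WT control mice, 46.7, 36.2 and 58.7 in the WT IMQ mice, 117, 274 and 167 in the control mice labelled Lcn2-/- and 51.7, 52.6 and 36.3 in the IMQ mice so labelled. Dct had the smallest error of the 3 enzymes and fell in both genotypes, with log2 fold changes of -1.68 (SE 0.45, adjusted p = 0.0162) and -1.99 (SE 0.45, adjusted p = 0.00889). WT control mouse 2 had 54.9 CPM of Dct, below WT IMQ mouse 3 and above the other IMQ mice of both genotypes.

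Among the melanosome proteins and transporters the direction was the same but fewer tests passed. Pmel (ENSMUSG00000025359, chr10:128704195-128720238, plus strand) encodes the fibril-forming premelanosome protein. It stood at 60.2, 13.0 and 73.0 CPM in the WT control mice and 16.6, 9.28 and 25.1 with IMQ, and among mice labelled Lcn2-/- at 28.3, 109 and 58.4 with vehicle against 19.97, 25.1 and 12.5 with IMQ. All 3 control mice with that label lay above all 3 IMQ mice, while WT control mouse 2 lay inside the IMQ range. Its log2 fold changes of -1.51 (SE 0.63, adjusted p = 0.0941) and -1.76 (SE 0.63, adjusted p = 0.0620) missed the threshold in both genotypes. Exons of Pmel share 34 bases with Cdk2 and 105 with Dgka on the opposite strand, and since no strand setting of the counting is given, a small part of its reads may belong to those genes. Mlana (ENSMUSG00000024806, chr19:29697824-29708634, plus strand) encodes Melan-A, a protein of early melanosomes. Mlana was at 14.4, 1.89 and 14.8 CPM against 2.61, 1.95 and 3.00 with IMQ in WT mice and 7.36, 26.4 and 12.5 against 4.15, 2.75 and 2.28 among mice labelled Lcn2-/-. Mlana fell in both, with log2 fold changes of -2.03 (SE 0.67, adjusted p = 0.0411) and -2.33 (SE 0.67, adjusted p = 0.0256). Its lowest value of all 12 mice was that of WT control mouse 2.

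Slc45a2 (ENSMUSG00000022243, chr15:11000721-11029233, plus strand) encodes a melanosomal transporter whose loss causes oculocutaneous albinism. Its levels were 4.30, 1.03 and 8.83 CPM in the WT control mice and 0.727, 0.739 and 3.10 with IMQ, then 3.78, 12.4 and 6.07 in the control mice labelled Lcn2-/- and 1.10, 1.05 and 0.300 with IMQ. Slc45a2 fell among mice labelled Lcn2-/- (log2 fold change -3.17, SE 0.86, adjusted p = 0.0200), where the groups did not overlap, while in WT mice the log2 value was -1.59 (SE 0.79, adjusted p = 0.158). Oca2 (ENSMUSG00000030450, chr7:56239760-56536518, plus strand) encodes the P protein, a melanosomal anion channel. Oca2 was the least abundant of the 10 genes, with 76, 1 and 67 counts in the WT control mice, 2, 2 and 9 in the WT IMQ mice, 14, 191 and 120 in the control mice labelled Lcn2-/- and 4, 10 and 12 in the IMQ mice so labelled. 3 of these libraries lay at or under the 3 counts taken as the limit of detection, and the groups overlapped in both genotypes. The fitted log2 fold changes were large but carried the widest errors of the 10 genes, -3.25 (SE 1.31, adjusted p = 0.0843) and -3.34 (SE 1.21, adjusted p = 0.0632), and neither passed.

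The lineage factors and the receptor gave smaller fold changes than the pigment genes. Mitf (ENSMUSG00000035158, chr6:97807052-98021349, plus strand) was at 43.2, 42.3 and 36.6 CPM in the WT control mice and 22.2, 25.3 and 24.7 in the WT IMQ mice, with a gap between the groups and no exception for control mouse 2. Among mice labelled Lcn2-/- it was at 33.5, 39.9 and 41.3 CPM with vehicle against 24.5, 29.1 and 32.1 with IMQ, again without overlap. Mitf fell 1.69-fold in WT mice, a log2 value of -0.76 (SE 0.13, adjusted p = 0.00176), and 1.34-fold among mice labelled Lcn2-/-, with -0.42 (SE 0.13, adjusted p = 0.0398). The errors were smaller than those of the enzyme genes too. Sox10 (ENSMUSG00000033006, chr15:79154908-79165240, minus strand) was at 11.2, 7.39 and 13.9 CPM in the WT control mice and 4.06, 3.50 and 6.10 with IMQ, and at 11.9, 10.1 and 8.66 with vehicle against 6.90, 7.89 and 3.90 with IMQ among mice labelled Lcn2-/-. Its groups did not overlap in either genotype, and the log2 fold change was -1.24 (SE 0.32, adjusted p = 0.0129) in WT mice and -0.71 (SE 0.31, adjusted p = 0.115) among mice labelled Lcn2-/-, past the threshold in WT mice only. The difference between these responses is tested below.

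Kit (ENSMUSG00000005672, chr5:75574916-75656722, plus strand) was the gene with the smallest changes. It stood at 30.9, 31.1 and 29.7 CPM in the WT control mice and 21.3, 27.1 and 19.9 in the WT IMQ mice, and although these did not overlap, the change of -0.43 (SE 0.15, adjusted p = 0.0535) on the log2 scale missed the threshold. Among mice labelled Lcn2-/- the levels were 42.7, 35.6 and 30.1 CPM without and 40.9, 36.1 and 37.4 with IMQ, overlapping groups that gave 0.077 (95% confidence interval -0.25 to 0.40, adjusted p = 0.740) on the log2 scale.

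**Figure D2:**
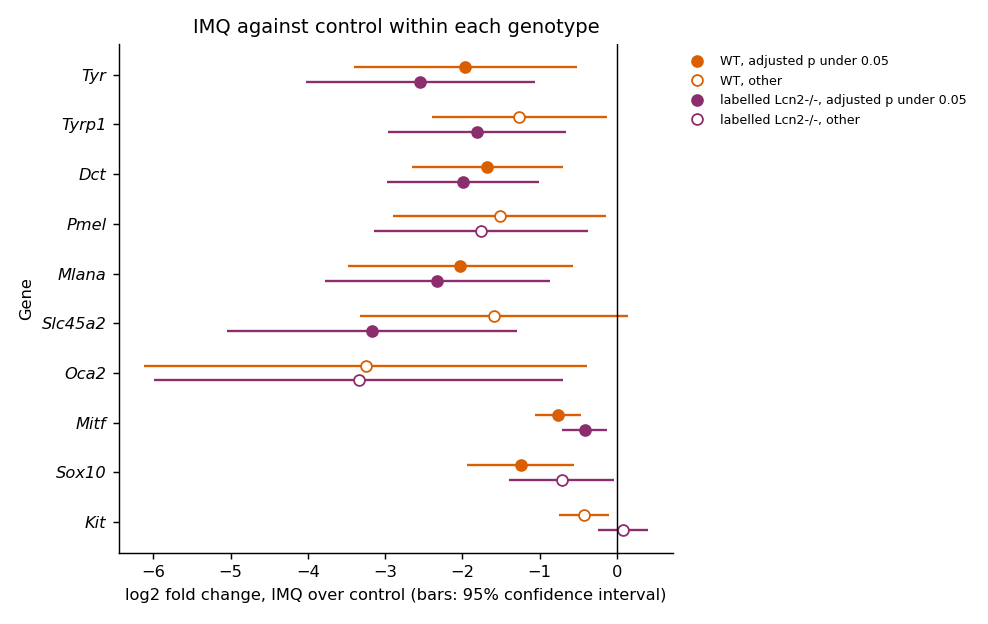
Fitted log2 fold change of IMQ over control (horizontal axis) for each of the 10 genes (vertical axis), in WT mice and in mice labelled Lcn2-/-, with 95% confidence intervals as bars and filled points where the adjusted p was under 0.05. All points but Kit among mice labelled Lcn2-/- lie below 0, and the intervals of Mitf, Sox10 and Kit are the narrowest.

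With IMQ against control averaged over both genotypes, 6 mice against 6, all genes but Kit fell: 9 of 10 lower and 0 higher, against 19.4% and 18.9% of all tested genes. The enzyme genes Tyr, Tyrp1 and Dct fell 4.76-fold, 2.90-fold and 3.56-fold (adjusted p = 0.00315, 0.00669 and 9.89e-04). Among the melanosome genes the fall was 3.11-fold for Pmel (adjusted p = 0.0135), 4.52-fold for Mlana (adjusted p = 0.00379), 5.20-fold for Slc45a2 (adjusted p = 0.00761) and 9.82-fold for Oca2 (adjusted p = 0.0126). Sox10 fell 1.97-fold (adjusted p = 0.00488) and Mitf 1.503-fold (adjusted p = 5.86e-04). The log2 fold change of Kit was -0.17 (95% confidence interval -0.41 to 0.057, adjusted p = 0.218). This average shares its mice with the comparisons within each genotype and is not separate evidence.

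The pigment genes moved with the genes of the growing hair follicle from mouse to mouse. Among the 6 control mice WT control mouse 2 was lowest, control mouse 1 labelled Lcn2-/- next and control mouse 2 labelled Lcn2-/- highest for each of the 7 enzyme and melanosome genes, and also for Krt27 and Krt71, keratins of the inner root sheath, for Shh, a signal of the growing follicle, and for Lef1, a transcription factor of the hair matrix. Krt27 was at 274, 0.731 and 162 CPM in the WT control mice and 15.04, 1009 and 442 in the control mice labelled Lcn2-/-. The 23 growing hair follicle genes tested summed to 3719.8, 44.1 and 2205 CPM in the WT control mice and 301, 12498 and 4864 in the control mice labelled Lcn2-/-. In the IMQ mice the sums were 49.0, 32.2 and 133 CPM in WT mice and 32.4, 41.4 and 34.6 among mice labelled Lcn2-/-, so that WT control mouse 2 lay within the range of the IMQ mice. Of the 23 genes, 8 fell with IMQ in WT mice, 21 among mice labelled Lcn2-/- and 20 in the average, 0 rose in any of these, and the medians of their log2 fold changes were -3.67, -8.85 and -6.56. The shares of all tested genes lower in the same comparisons were 14.3%, 11.2% and 19.4%. Among mice labelled Lcn2-/- the 21 became 6, 7 and 6 without IMQ mouse 1, 2 and 3 and 9 with the replicate number as a block. In WT mice the 8 became 5 without IMQ mouse 1 or 3. The part of the hair follicle's growth phase in the fall of the pigment genes was not tested.

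**Figure D3:**
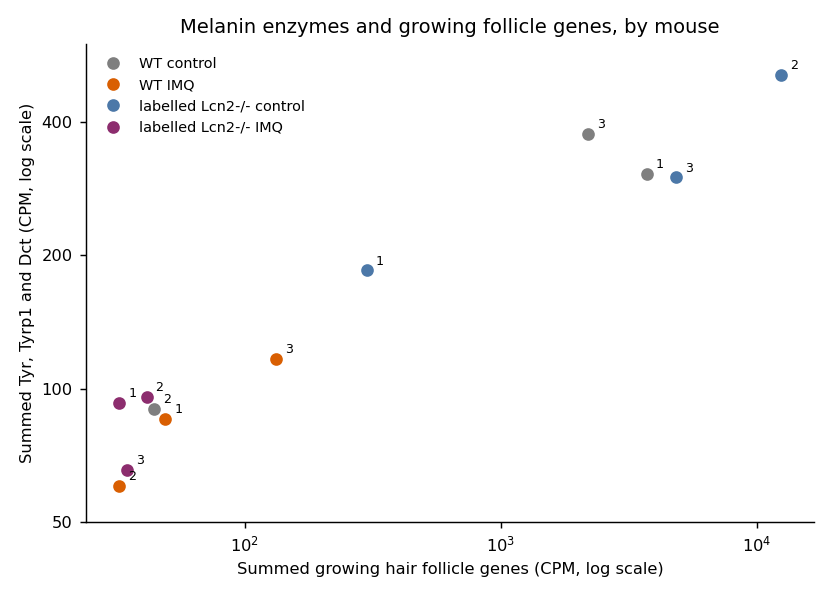
Sum of Tyr, Tyrp1 and Dct (vertical axis, CPM, log scale) against the sum of the growing hair follicle genes (horizontal axis, CPM, log scale) in each of the 12 mice, numbered within their group and coloured by group. WT control mouse 2 lies among the IMQ mice at the lower left, and the other control mice lie above all IMQ mice on both axes.

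Without WT control mouse 2, 8 of 10 genes were lower with IMQ in WT mice in place of 5, and the log2 fold changes of the pigment genes grew. Over all tested genes, 4662 of 19171 were then called in either direction, in place of 5287 of 18529. Tyrp1 went to -1.66 (adjusted p = 0.0254), Pmel to -1.97 (adjusted p = 0.0254) and Oca2 to -3.83 (adjusted p = 0.0228), all now past the threshold, while Slc45a2 stayed outside it at -2.07 (adjusted p = 0.0572). Mitf was nearly unmoved at -0.73 (adjusted p = 0.00586). Without both control mice lowest in the follicle genes, 9 of 10 genes were lower in WT mice and 8 of 10 among mice labelled Lcn2-/-, and 16 of the 23 follicle genes were lower in WT mice. Of all 18990 genes tested in that fit, 4916 were called in either direction in WT mice and 5098 among mice labelled Lcn2-/-. The choice of mice left out, made after the data had been seen, removes the control mice nearest to the IMQ mice, so the larger count follows in part from it. Calls among mice labelled Lcn2-/- rested on few mice, and without control mouse 2 of that label, the highest of all in the pigment genes, only 1 gene was called. Over all tested genes, 3257 of 19135 were called in either direction without that mouse, in place of 4691 of 18529.

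The next question was whether the genes differed between genotypes. Control mice labelled Lcn2-/- and WT control mice differed in 0 of the 10 genes by edgeR, where 0.0054% of all tested genes were called in each direction. At an unadjusted p under 0.05 the count was also 0, against 2.65% of all tested genes higher and 3.95% lower, and by DESeq2 it was 0, against 0.35% and 0.31%. The log2 differences ranged from -0.092 for Mitf to 1.16 for Oca2. The intervals were wide for the pigment genes, such as 0.35 (95% confidence interval -1.02 to 1.72, adjusted p = 0.975) for Tyr and 0.30 (95% confidence interval -0.65 to 1.25, adjusted p = 0.973) for Dct, and narrower for Mitf at -0.092 (95% confidence interval -0.38 to 0.20, adjusted p = 0.974). Any difference inside those intervals is compatible with the values of these mice, so the groups were not shown to be equal.

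With IMQ, Kit was the gene called between genotypes: it was higher in the mice labelled Lcn2-/- than in the WT mice, 1 of 10 genes higher and 0 lower, against 2.19% and 2.6% of all tested genes. Mean levels of Kit were 38.1 ± 2.48 CPM (SD, n = 3) with the Lcn2-/- label and 22.8 ± 3.80 CPM (SD, n = 3) without it, 1.68-fold apart with no overlap. Its log2 difference was 0.74 (95% confidence interval 0.41 to 1.07, adjusted p = 0.0293). The call was kept without WT IMQ mouse 2. It was lost without WT IMQ mouse 1 or 3 or without any 1 of the IMQ mice labelled Lcn2-/-. Over all tested genes, 2726 of 19248 were called in either direction without WT IMQ mouse 2, in place of 886 of 18529. Without WT IMQ mouse 1 or 3 the calls were 0 of 19128 and 0 of 19074. Without IMQ mouse 1, 2 or 3 labelled Lcn2-/- they were 4 of 19225, 1 of 19191 and 0 of 19203. The adjusted p of Kit ranged from 3.19e-04 to 0.155 over all alternatives, while its log2 difference stayed between 0.66 and 0.89. The remaining 9 genes gave log2 differences from -0.92 for Slc45a2 to 1.08 for Oca2. Dct was the closest to equal, at -0.011 (95% confidence interval -0.97 to 0.95, adjusted p = 0.992), and Tyr was at -0.23 (95% confidence interval -1.69 to 1.23, adjusted p = 0.854).

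An interaction term asked whether IMQ acted differently in the 2 genotypes, and it was called for 0 of the 10 genes by edgeR, where 1.37% of all tested genes were called higher and 0.783% lower, and for 0 by DESeq2, where the shares were 6.17% and 5.41%. At an unadjusted p under 0.05, passed by 12.3% of all tested genes upward and 11.9% downward, the count was 1, Kit, whose response among mice labelled Lcn2-/- exceeded that in WT mice by 0.50 (95% confidence interval 0.039 to 0.97, adjusted p = 0.178) on the log2 scale. For Sox10, called in WT mice only, the difference was 0.53 (95% confidence interval -0.44 to 1.50, adjusted p = 0.481), and for Slc45a2, called only among mice labelled Lcn2-/-, it was -1.58 (95% confidence interval -4.08 to 0.92, adjusted p = 0.414). Tyrp1, also called only among mice labelled Lcn2-/-, gave -0.55 (95% confidence interval -2.13 to 1.03, adjusted p = 0.673). These tests show neither that the responses differed nor that they were alike.

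Other cell types that express Kit, Sox10 and Mitf were followed by lists of their markers. The 13 mast cell markers summed to 343, 453 and 297 CPM in the WT control mice and 449, 556 and 479 in the WT IMQ mice. Among mice labelled Lcn2-/- they summed to 509, 228 and 370.3 with vehicle and 798, 790.2 and 759 with IMQ. Kit was higher in these IMQ mice than in the WT IMQ mice. From vehicle to IMQ, mean Kit went from 30.6 to 22.8 CPM in WT mice and from 36.1 to 38.1 among mice labelled Lcn2-/-. Of the 13, 3 rose (Tpsab1, Hdc and Fcer1a) and 1 fell (Mrgprb2) with IMQ in WT mice, and 7 rose among mice labelled Lcn2-/-, led in both by Tpsab1, a tryptase (3.17 and 3.40 on the log2 scale), and Hdc, the histamine-forming enzyme (2.01 and 2.17). Of all tested genes 14.2% were higher and 14.3% lower in WT mice, and 14.1% were higher among mice labelled Lcn2-/-. The call of Mrgprb2 was lost when any 1 of the 6 WT mice was left out. Between the IMQ groups 0 of the 13 were called by edgeR and 6 were higher at an unadjusted p under 0.05, against 12.5% of all tested genes. Cma1, mast cell chymase and one of the defining markers, was at 77.97, 94.6 and 81.9 CPM in the WT IMQ mice and 159, 157 and 124 in the IMQ mice labelled Lcn2-/-. Control mouse 1 labelled Lcn2-/-, the highest control mouse in Kit, was also the highest in Cma1. Control mouse 2 of that label, the next highest in Kit, was the lowest of the 6 control mice in Cma1. The part of mast cells in the level of Kit was not tested.

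The 16 Schwann cell markers summed to 764, 1147 and 804 CPM in the WT control mice, 558, 668 and 546 with IMQ, 846, 595 and 725 in the control mice labelled Lcn2-/- and 746, 754 and 665 with IMQ. In WT mice 8 of the 16 fell, with Sox2 (-4.10 on the log2 scale) and Ngfr (-2.45) first, and among mice labelled Lcn2-/- 3 did, Sox2 (-1.80), Ngfr (-1.70) and Egr2 (-1.54). The shares of all tested genes lower were 14.3% in WT mice and 11.2% among mice labelled Lcn2-/-. Sox2 and Ngfr are also expressed in the hair follicle. The 8 became 4 and 5 without WT IMQ mouse 1 and 3, and the 3 became 1 or 2 when any 1 mouse labelled Lcn2-/- was left out. The part of Schwann cells in the level of Sox10 was not tested. Of 8 macrophage markers, 1 (Adgre1) rose with IMQ in WT mice, where 14.2% of all tested genes were higher. All 8 rose among mice labelled Lcn2-/-, against 14.1% of all tested genes, while Mitf fell in both genotypes. The 8 became 4 without control mouse 2, control mouse 3 or IMQ mouse 3 and 5 without IMQ mouse 2, and Adgre1 was not called in WT mice without control mouse 1.

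**Figure D4:**
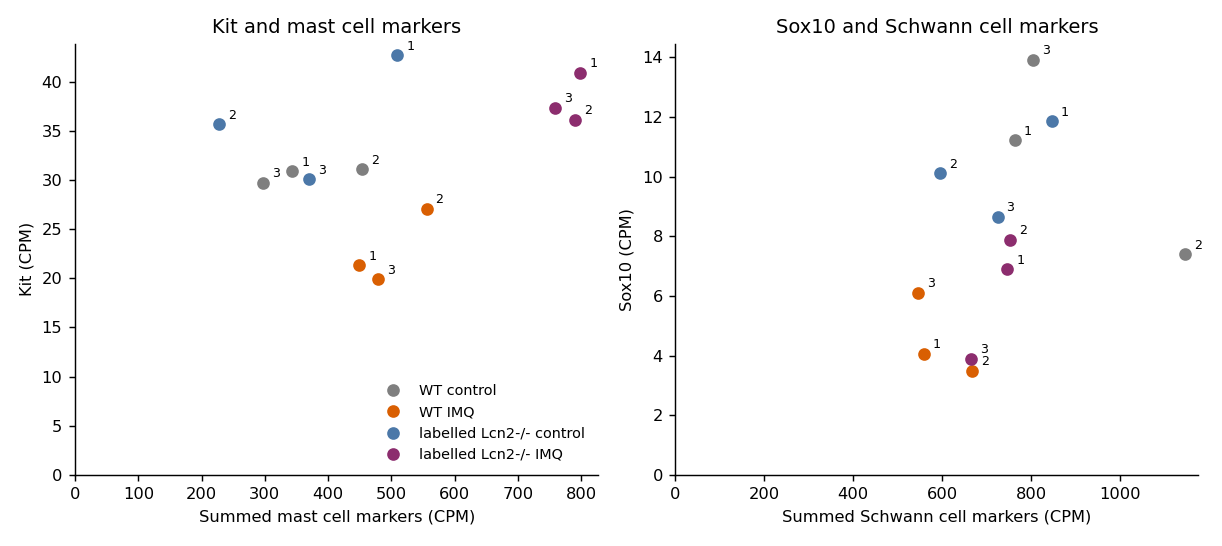
Left, Kit (vertical axis, CPM) against the sum of 13 mast cell markers (horizontal axis, CPM); right, Sox10 (vertical axis, CPM) against the sum of 16 Schwann cell markers (horizontal axis, CPM), with 1 point per mouse numbered within its group and coloured by group. The IMQ mice labelled Lcn2-/- have the highest mast cell sums and Kit levels above those of all WT IMQ mice, and WT control mouse 2 has the highest Schwann cell sum with a Sox10 level below the other control mice.

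Of 8 other genes enriched in melanocytes, 3 fell and 1 rose with IMQ in WT mice, and 3 fell and 0 rose among mice labelled Lcn2-/-, with median log2 fold changes of -1.68 and -2.18. Over all tested genes the shares were 14.3% lower and 14.2% higher in WT mice, and 11.2% and 14.1% among mice labelled Lcn2-/-. In WT mice the 3 that fell became 5 without control mouse 2 and 1 without any other mouse. Among mice labelled Lcn2-/- the 3 became 1 without control mouse 2 and 0 without IMQ mouse 3. Trpm1, a cation channel whose gene is a Mitf target, fell in both genotypes, at -2.68 (SE 0.75, adjusted p = 0.0204) in WT mice and -3.17 (SE 0.76, adjusted p = 0.0119) among mice labelled Lcn2-/- on the log2 scale. Slc24a5, a melanosomal cation exchanger, went the same way at -2.02 (SE 0.61, adjusted p = 0.0279) and -2.29 (SE 0.60, adjusted p = 0.0170). Pax3, a transcription factor of melanocyte precursors and the other gene that fell in both, had log2 fold changes of -1.51 and -1.28. The gene that rose in WT mice was Rab38, a small GTPase of melanosome cargo sorting that other epithelial cells use too (log2 fold change 0.96, SE 0.22, adjusted p = 0.00690).

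The wider machinery that sorts cargo to melanosomes and moves them, much of which works in every cell, was followed in 25 genes. Of these, 4 rose (Tpcn2, Mreg, Ap3m1 and Ap3d1) and 2 fell (Rab27a and Bloc1s5) with IMQ in WT mice, and 4 rose (Tpcn2, Myo5a, Vps33a and Ap3d1) and 0 fell among mice labelled Lcn2-/-, with median log2 fold changes of -0.087 and 0.28. The shares of all genes given above were 14.2% higher and 14.3% lower in WT mice and 14.1% and 11.2% among mice labelled Lcn2-/-, so the rises were near the background. Leaving out 1 mouse gave 1 to 4 rises in either genotype, 1 to 3 falls in WT mice, and 0 to 1 among mice labelled Lcn2-/-. The largest rise in WT mice was that of Tpcn2, an endolysosomal channel (log2 fold change 1.46, SE 0.28, adjusted p = 0.00266), which also rose among mice labelled Lcn2-/- (log2 fold change 1.12, SE 0.28, adjusted p = 0.0128). Rab27a, the GTPase that tethers melanosomes to myosin, fell in WT mice (log2 fold change -0.89, SE 0.17, adjusted p = 0.00296) and was at -0.060 (SE 0.17, adjusted p = 0.826) among mice labelled Lcn2-/-. Between the IMQ groups Rab27a was higher in the mice labelled Lcn2-/- (log2 difference 0.67, SE 0.17, adjusted p = 0.0493). That call was kept without WT IMQ mouse 2 and lost without any other mouse of the 6 and with the replicate block. Without any of those other mice at most 4 of all tested genes were called, and with the block 136 of 18529 were. Its motor partner Myo5a rose among mice labelled Lcn2-/- (log2 fold change 0.91, SE 0.16, adjusted p = 0.00202).

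Among the signals that act on melanocytes and their receptors, 12 of 13 listed genes were tested. In WT mice 3 fell and 0 rose with IMQ, and among mice labelled Lcn2-/- 3 fell and 1 rose. The shares of all tested genes were 14.3% lower and 14.2% higher in WT mice, and 11.2% and 14.1% among mice labelled Lcn2-/-. Mc1r, Edn3 and Corin fell in both genotypes. Mc1r, the melanocortin receptor that drives eumelanin synthesis through cyclic AMP, was at 4.30, 0.946 and 4.89 CPM in the WT control mice and 0.364, 0 and 0.436 in the WT IMQ mice, of which mouse 2 had 0 counts. Among mice labelled Lcn2-/- it was at 3.22, 8.21 and 2.32 CPM with vehicle against 0.733, 0.585 and 0.120 with IMQ. Its fitted log2 fold changes of -3.56 (SE 0.91, adjusted p = 0.0134) and -3.23 (SE 0.86, adjusted p = 0.0189) rest on few counts in the IMQ mice. Edn3, the ligand endothelin 3, had log2 fold changes of -3.35 (SE 0.45, adjusted p = 3.02e-04) and -2.70 (SE 0.44, adjusted p = 0.00144). Those of Corin, a protease of the dermal papilla that acts on coat colour, were -4.67 (SE 0.93, adjusted p = 0.00362) and -4.88 (SE 0.95, adjusted p = 0.00408). Asip, the agouti antagonist of Mc1r, rose among mice labelled Lcn2-/- (log2 fold change 2.14, SE 0.62, adjusted p = 0.0259), a call kept without control mouse 3 of that label and lost without any other mouse of the comparison. Mc1r was not called there without control mouse 2, IMQ mouse 2 or IMQ mouse 3. Kitl, the ligand of Kit, had log2 fold changes of -0.50 (SE 0.19, adjusted p = 0.0710) and -0.046 (SE 0.19, adjusted p = 0.884).

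The 7 enzyme and melanosome genes rose and fell together over the mice. Pearson's r of their log2 CPM lay between 0.80 and 0.99 for the 21 pairs over the 12 mice, and between 0.73 and 0.99 for deviations from the group means. These are descriptions over 12 points that share their libraries and their groups. With the same 7 genes, Sox10 gave r from 0.62 to 0.85 over the mice and 0.29 to 0.80 within groups, Mitf 0.55 to 0.70 and -0.20 to 0.32, and Kit 0.026 to 0.24 and -0.52 to -0.24. Of 15973 other genes with a mean of at least 1 CPM, the 10 most like the mean of Tyr, Tyrp1, Dct, Pmel and Mlana over the 12 mice were Casp2, Brd3, Syt4, Trpm1, Msi1, Edn2, Tiam2, Lgr5, Hoxb8 and Hes2, with r from 0.988 for Casp2 to 0.975 for Hes2. For deviations from the group means they were Lef1, Znrf3, Odf2, March9, Syt4, Casp2, Fam207a, Igsf9, Trpm1 and Brd3, with r from 0.989 to 0.972. Casp2, Brd3, Syt4 and Trpm1 are on both lists.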

How the data were processed

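RNA from 12 back skin samples, each taken here as 1 mouse, had been sequenced. The authors deposited 1 table of raw read counts for 56923 Ensembl genes, not normalised. The submitters' processing notes name HISAT and the build mm8, without a role. The aligner's version, the counting tool, its strand setting and the annotation are not given in the sources used here. Symbols and positions came from GENCODE M21 (GRCm38), which holds 52073 of the identifiers (91.5%), and promoters from RefSeq on GRCm38.p6.

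The genes with enough counts by filterByExpr (minimum count 10, minimum total 15), 18529 in all, were normalised by TMM and tested with edgeR 4.0.16 (limma 3.58.1, R 4.3.3), fitting the means of the 4 groups by quasi-likelihood to the 12 mice with robust spread estimates. The common biological coefficient of variation was 0.253. CPM values use TMM library sizes, and the SE is the log2 fold change divided by the square root of F. A level of 3 counts, 0.0985 to 0.202 CPM, was the limit of detection, and it covers counting error only. The labels name separate samples without saying how the animals were kept, so p-values measure only the spread between these samples, which may be technical. Replicate numbers come from the labels. No pair of the 12 libraries agreed within sampling noise by a chi-square of their counts over genes.

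The 10 genes and all lists were chosen with earlier results of these data known. All 10 genes are described, and a gene of another list is named if it was among the 2 largest rises or falls called in a comparison, checks a label or lies near 0. Kitl, Pax3, Edn3, Mreg, Ap3m1, Ap3d1, Bloc1s5, Vps33a, Fcer1a, Egr2, Adgre1, Lgr5, Cd34, Tcf7l1, Sox9, Cma1, Krt27, Krt71 and Shh lie outside that rule and were named after their values were seen. The fit was tested on simulated counts of 18157 genes for WT IMQ against WT control, with 200 genes changed 4-fold. Of these, 146 (73%) were found, and among the 151 genes called 5 had not been changed, against 42 of 213 genes called by DESeq2. Alternatives were RLE size factors, DESeq2 1.42.0, no filter, at least 10 counts in every library, the compared mice only, the replicate number as a block, each mouse left out and, added after seeing the data, both follicle-low control mice left out. Plots used matplotlib 3.10.9 (Python 3.11.15).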

Additional observations from a re-analysis of the deposited data

How the results depend on the processing

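In the average over genotypes 9 of 10 genes were lower whichever mouse was left out. Without the filter on low counts 7 of 10 were lower, and with at least 10 counts in every library 7 of the 8 tested. Over all tested genes, 7106 of 18529 were called in either direction, against 6475 of 34819 with no filter. With at least 10 counts in every library 6086 of 14779 were called. Leaving out 1 mouse gave from 6011 of 19203 to 7343 of 19171. Within genotypes the counts depended on the processing. In WT mice 5 genes were lower, against 8 with DESeq2 (17% of all tested genes lower), 2 with no filter on low counts, 3 among 9 tested on the compared mice only, 3 with the replicate block and 9 without both follicle-low control mice. Leaving out 1 mouse gave 1 to 8: 2 without WT control mouse 1 or 3, 8 without mouse 2, 1 without WT IMQ mouse 1 and 3 without WT IMQ mouse 2. Over all tested genes, 5287 of 18529 were called in either direction, against 4449 of 34819 with no filter and 4404 of 18529 with the block. On the compared mice only, 3787 of 17473 were called. Without WT control mouse 1 or 3 the calls were 3877 of 19179 and 4488 of 19212. Without WT IMQ mouse 1 or 2 they were 3289 of 19128 and 5662 of 19248. Among mice labelled Lcn2-/- 6 of the 10 genes were lower, against 8 with DESeq2 (14.4% of all tested genes lower) and 7 on the compared mice only. With no filter 1 was lower, and with the block 3. Leaving out 1 mouse gave 1 to 8: 8 without control mouse 1 and 4 without control mouse 3. It gave 1 without control mouse 2, IMQ mouse 1 or IMQ mouse 2, and 2 without IMQ mouse 3. Over all tested genes, 4691 of 18529 were called in either direction, against 3712 of 34819 with no filter and 3722 of 18529 with the block. On the compared mice only, 4851 of 17362 were called. Without control mouse 1, 2 or 3 the calls were 4288 of 19187, 3257 of 19135 and 2981 of 19068. Without IMQ mouse 1, 2 or 3 they were 3370 of 19225, 3134 of 19191 and 2747 of 19203. Higher Kit in IMQ mice labelled Lcn2-/- was not called with the block (0 genes, adjusted p = 0.0544), and leaving out 1 mouse gave 0 to 1. Between the IMQ groups 136 of all 18529 tested genes were called in either direction with the block, in place of 886. Mice sharing a number deviated from their group means with correlations of -0.55 to 0.20. With groups this small, those correlations cannot show whether mice with the same number shared a cage or a batch. The block changed no other count of these genes by over 1.5 times. Mitf was lower in WT mice, and Dct among mice labelled Lcn2-/-, under all 13 alternatives run for that comparison. The other calls were kept in fewer. In WT mice Sox10 was called in 12 of 13, Dct in 8, Tyr in 6 and Mlana in 5. Among mice labelled Lcn2-/- Tyr was called in 8 of 13, Mlana in 7, Tyrp1 in 6, Mitf in 6 and Slc45a2 in 7 of 12. The log2 fold change of Kit among mice labelled Lcn2-/- turned from 0.077 to -0.043 without control mouse 3, ranged up to 0.21 without control mouse 1, and was called in none of these. Of the counts for the other lists, 210 of 1760 moved by over 1.5 times. The cause of these changes was not tested. The small counts of Oca2 and Slc45a2 limit both: with at least 10 counts in every library, 8 of the 10 genes were tested.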

Other observations

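The 8 genes of hair follicle stem cells, which rest in the bulge beside melanocyte stem cells, also differed with IMQ: 5 fell (Lhx2, Krt15, Lgr5, Cd34 and Tcf7l1) and 0 rose in WT mice, and 4 fell (Lhx2, Krt15, Lgr5 and Sox9) and 1 rose (Nfatc1) among mice labelled Lcn2-/-. Of all tested genes 14.3% were lower and 14.2% higher in WT mice, and 11.2% and 14.1% among mice labelled Lcn2-/-. In WT mice Cd34 was not called without IMQ mouse 1 or 3. The summed level of the 8 genes was 1076, 1679.9 and 1261 CPM in the WT control mice and 370.5, 448 and 429.8 in the WT IMQ mice, and among mice labelled Lcn2-/- 947, 912 and 1240.0 with vehicle against 608, 608 and 474 with IMQ. WT control mouse 2, the lowest control mouse in the pigment genes, had the highest sum, carried by Krt15 and Cd34, while Lgr5 (12.2 CPM) and Lhx2 (39.3 CPM) were lowest in that mouse of all 6 control mice, as the pigment genes were. Lhx2, a transcription factor of the bulge and hair germ, fell the most in both genotypes, with log2 fold changes of -2.89 (SE 0.52, adjusted p = 0.00198) and -3.06 (SE 0.52, adjusted p = 0.00215), followed by Krt15, a bulge keratin, with -2.23 (SE 0.44, adjusted p = 0.00355) and -2.13 (SE 0.44, adjusted p = 0.00562). Nfatc1, a regulator of stem cell quiescence, rose among mice labelled Lcn2-/- (log2 fold change 0.73, SE 0.17, adjusted p = 0.0101) and was at 0.082 (SE 0.17, adjusted p = 0.754) in WT mice.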
